A study of Mus musculus with 6 samples.

Results

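The antiviral interferon-stimulated genes described here are 44 genes, many of whose products detect viral nucleic acid or block viral replication. The genes were chosen by name, with earlier results of these data known. All 44 had a row among the 16254 genes of the deposited count table, with Ddx58 listed as Rigi, and 41 were counted deeply enough to be tested. They were measured by bulk RNA sequencing in eosinophils grown from C57BL/6 mouse bone marrow, from mice aged 6 to 12 weeks, with FLT3 ligand and stem cell factor followed by IL-5. On culture day 12, 3 cultures received 5e9 extracellular vesicles (EVs) per ml, purified from the medium of restimulated TH2 cells, and 3 received an equal volume of unconditioned medium taken through the same purification (sham). All 6 were collected after 24 h. The treatment is a purified vesicle preparation added to cultured cells, and the comparison asks which eosinophil transcripts differ after it. The paper reports that such vesicles improved eosinophil survival in culture and lowered apoptosis, relative to untreated cells. It attributes the survival effect to a cytokine carried on the vesicle surface. Viability of the sequenced cultures is not given in the sources used here. The part of cell survival in the differences described below was not tested.

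Interferons act through cell surface receptors and the kinases JAK1, TYK2 and JAK2. Type I interferon activates a complex, ISGF3, with IRF9 as its DNA-binding part, that binds the interferon-stimulated response element (ISRE) of antiviral genes, whereas interferon-gamma acts largely through gamma-activated sites (GAS). The induced proteins include sensors of RNA and DNA, enzymes that degrade or edit RNA, modifiers of other proteins, and factors at membranes that hinder viral entry or release. In eosinophils, which carry Toll-like receptors and ribonucleases, antiviral activity has been described alongside their better known part in type 2 inflammation.

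Of the 41 antiviral genes tested, 16 rose and 1 fell in EV-treated eosinophils, and 24 did not pass the test. A gene was called at an adjusted p under 0.01 by edgeR's quasi-likelihood test, fitted and adjusted over 13498 genes, of which 12.1% were called higher and 11.6% lower (1632 and 1572 genes). With total counts alone as the scaling these were 1036 and 2342 genes, and 14 antiviral genes were higher and 2 lower. With a log2 fold change (log2FC) of at least 1 as a further requirement, 7 antiviral genes were higher and 1 was lower, where 3.1% of all genes tested were higher and 6.35% lower. The median log2FC of the antiviral genes was 0.59, beside -0.01 over all genes tested, and single genes ranged from -1.44 to 4.49. In 21 of them every EV-treated library lay above every sham-treated library and in 4 every EV-treated library lay below, against 24.8% and 24.7% of all genes tested. The 16 that rose were Zbp1, Usp18, Oasl2, Cmpk2, Rsad2, Isg20, Parp14, Samhd1, Ddx58, Ifi35, Trim21, Dtx3l, Adar, Eif2ak2, Sp100 and Parp9, and the gene that fell was Ifitm3.

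**Figure D1:**
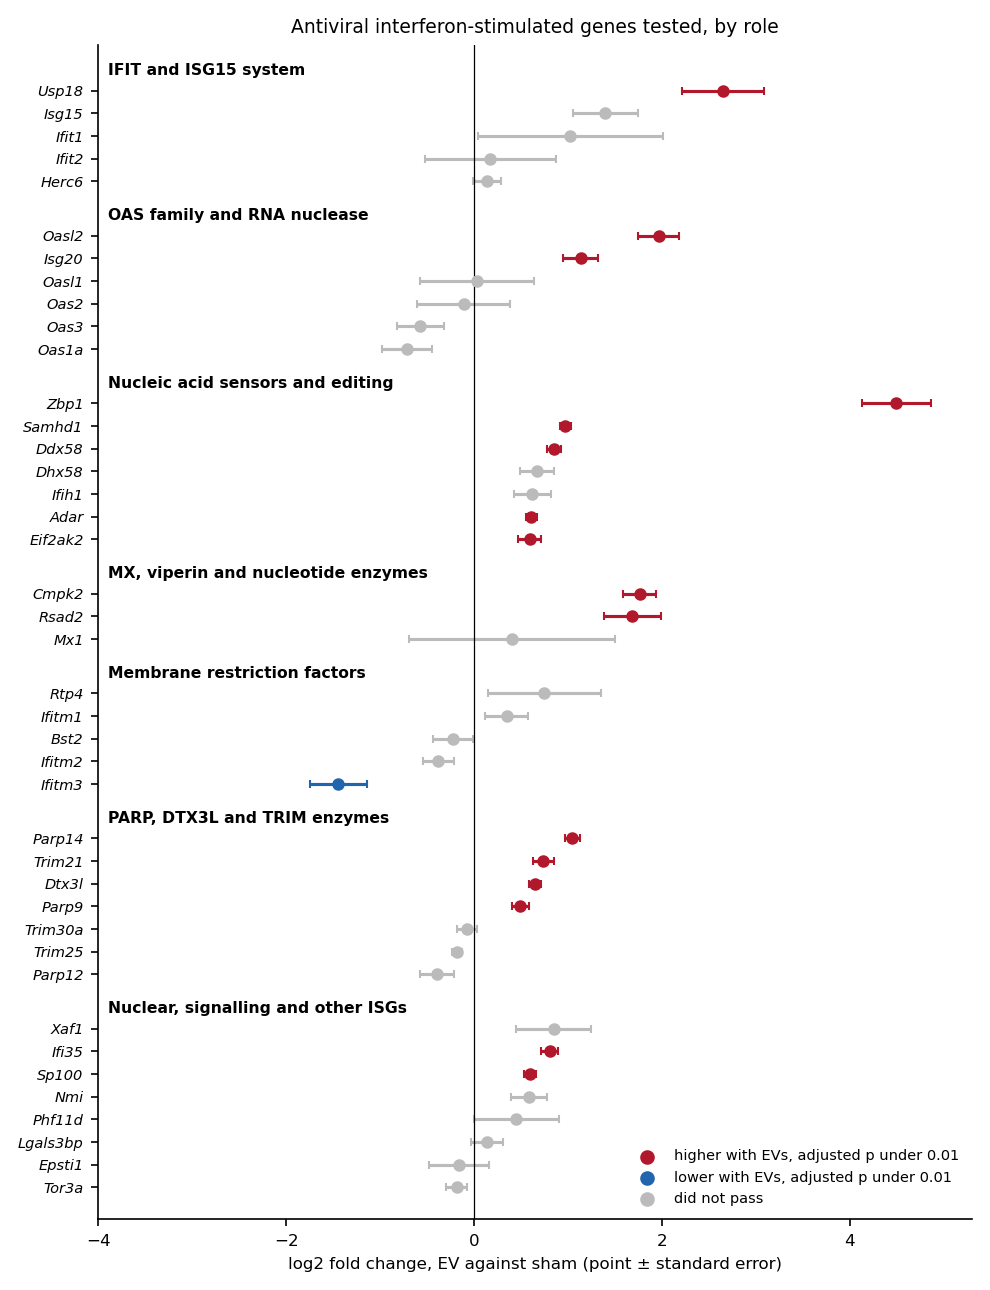
Log2 fold change between EV- and sham-treated eosinophils (x axis) for the 41 antiviral genes tested, grouped by role, with points for the fitted value and bars for its standard error. Red marks the 16 genes called higher, blue Ifitm3, the gene called lower, and grey the 24 that did not pass. Zbp1 lies farthest to the right at 4.49, and all 7 nucleic acid sensors and editing enzymes lie to the right of 0.

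Between 23697620 and 37874426 counts were assigned to genes in each library. Sham replicates differed more than EV replicates did, with a chi-square per gene of 13.5 to 31.8 between sham pairs and 8.37 to 9.93 between EV pairs, and the higher sham values all involved replicate 1. Eosinophil markers were the most counted of the marker lists, at a summed 31790 to 39380 CPM, counts scaled to a common library total, in sham-treated and 40930 to 45870 CPM in EV-treated libraries, and 8 of 10 rose. Of 10 macrophage and monocyte markers 2 rose and 6 fell. Their sum was 1879 to 2412 CPM in sham-treated and 2117 to 2260 CPM in EV-treated libraries, and of those that fell, Csf1r, C1qa, C1qb, C1qc and Cd68 were each lowest in replicate 1 among the sham-treated libraries. T cell markers summed to 12.3 to 31.6 CPM in sham-treated and 4.03 to 5.20 CPM in EV-treated libraries. Of 3 tested, Cd28 fell (log2FC -3.705, adjusted p = 3.69e-05) and none rose. Cd3d (log2FC 0.346, adjusted p = 0.714) and Cd8a (-0.265, adjusted p = 0.672) did not pass. Mast cell and basophil markers summed to 215.6 to 264.9 CPM in sham-treated and 409.5 to 484.6 CPM in EV-treated libraries, and 5 of 7 rose and none fell. Neutrophil markers summed to 544.9 to 614.0 CPM and 435.5 to 530.6 CPM, with 1 of 8 tested higher and 5 lower, and no B cell or conventional dendritic cell marker was called. Plasmacytoid dendritic cell markers summed to 18.2 to 27.3 CPM and 5.04 to 6.01 CPM. Siglech, their defining marker, was counted in 1 sham-treated library and at 0 in the other 5. Of 4 tested, 1 was lower, Tcf4 (log2FC -2.16, adjusted p = 1.08e-05). Ccr9 (-2.009, adjusted p = 0.0895), Pacsin1 (-0.802, adjusted p = 0.384) and Ptcra (0.027, adjusted p = 0.985) did not pass. The part of other cell types in the results on antiviral genes was not tested, and in bulk RNA fewer cells of a type cannot be told apart from less RNA per cell.

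The 7 cytosolic sensors and RNA-editing or nucleotide-depleting enzymes were the group with the most calls. Of the 7, 5 rose, none fell, and in all 7 the EV-treated libraries lay above the sham-treated ones. Of all genes tested, 12.1% were called higher and 11.6% lower, and in 24.8% the EV-treated libraries lay above the sham-treated ones. Zbp1 (chr2:173206612-173218923, minus strand; all gene positions are from GENCODE on GRCm38), which encodes a sensor of left-handed nucleic acid that can trigger cell death, had normalized counts of 75.7, 45.4 and 13.4 in sham replicates 1 to 3 and of 1038, 1094 and 1017 in EV replicates 1 to 3. A normalized count is the rounded count scaled for library size and composition. The EV-treated libraries sat close together far above every sham-treated library, and the mean was 23.4-fold higher, a log2FC of 4.49 ± 0.37 (SE, adjusted p = 9.31e-06). Leaving out any 1 of the 6 libraries moved this between 4.09 and 5.16.

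Samhd1 (chr2:157097533-157135265, minus strand), which encodes an enzyme that depletes the nucleotides needed for viral DNA synthesis, had the highest mean count of the 44 genes, not corrected for gene length. Its normalized counts were 25650, 22280 and 22880 in sham-treated and 45480, 46750 and 46680 in EV-treated libraries. The groups stood well apart, with a mean of 23600 ± 1796 (SD, n = 3) against 46300 ± 715.9 (SD, n = 3) and a log2FC of 0.97 ± 0.06 (SE, adjusted p = 1.69e-06).

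The 3 RIG-I-like helicases, which recognize viral RNA in the cytosol, were each higher in every EV-treated than in every sham-treated library, but not all passed. Ddx58 (RIG-I) was counted at 1495, 1441 and 1299 in sham-treated and at 2472, 2619 and 2573 in EV-treated libraries, a log2FC of 0.86 ± 0.07 (SE, adjusted p = 1.26e-05). Dhx58 (LGP2) had a log2FC of 0.67 (adjusted p = 0.0161) and Ifih1 (MDA5) of 0.62 (adjusted p = 0.0322), so neither passed. Dhx58 passed with DESeq2 (adjusted p = 0.00485) and without sham replicate 2 (0.00399), and Ifih1 without sham replicate 3 (0.00642). Adar, which converts adenosine to inosine in duplex RNA, rose by 0.61 on the log2 scale (adjusted p = 3.9e-05). Eif2ak2, the kinase PKR that halts translation on binding duplex RNA, rose by 0.59 (adjusted p = 0.00353), but lost its call when EV replicate 1 (0.0134), 2 (0.0196) or 3 (0.0168) was left out. Exons of Adar share 15.4% of their 31-base words with the neighbouring gene Chrnb2, and strandedness is not given in the sources used here, so the assignment of those reads is uncertain.

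**Figure D2:**
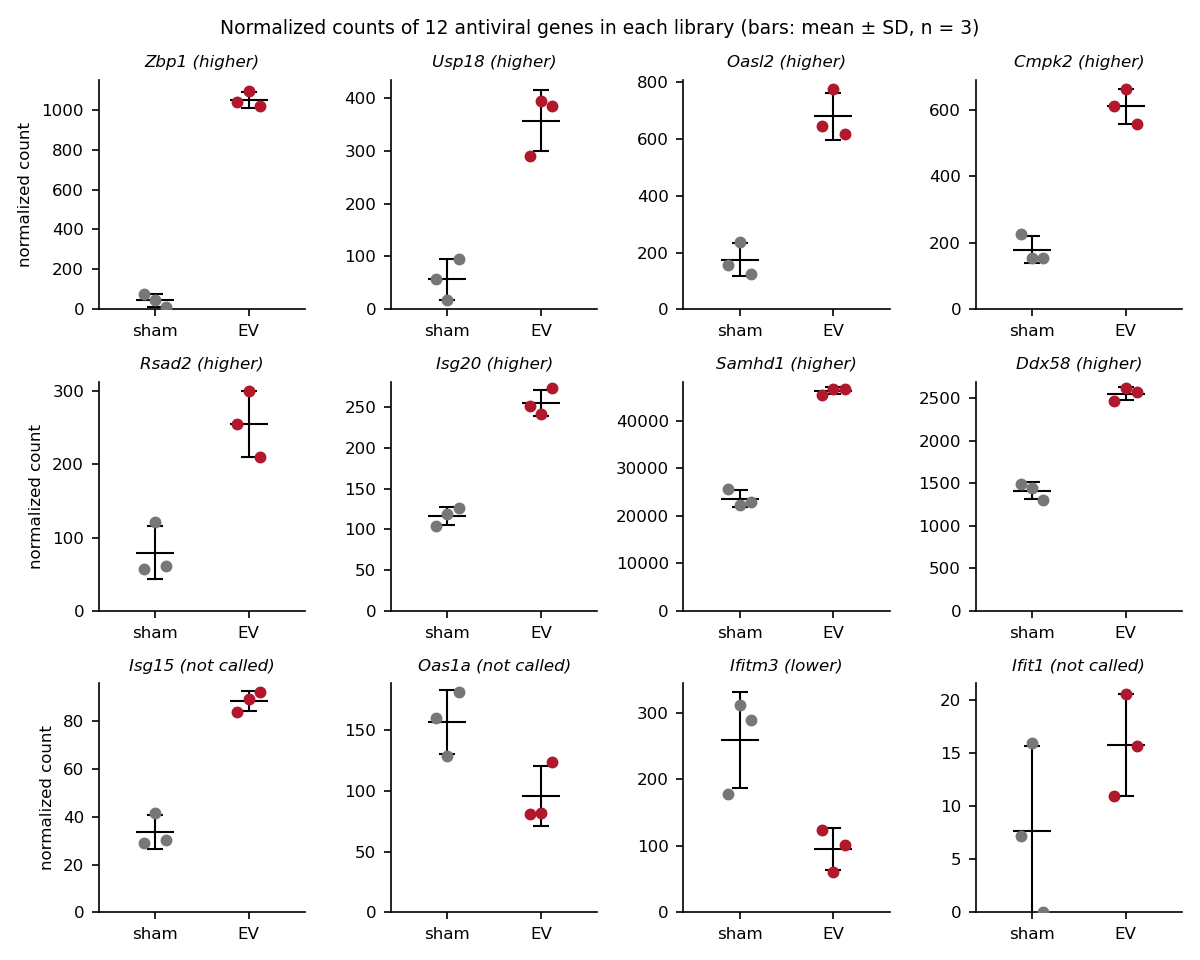
Normalized counts (y axis, linear, from 0) of 12 antiviral genes in each library, with 3 sham-treated (grey) and 3 EV-treated (red) libraries per gene and bars for the mean and SD. The lower SD bar of Ifit1 in sham-treated libraries is cut at 0. The groups separate in every panel except Ifit1, downward in Oas1a and Ifitm3 and upward in the other 9.

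In the MX and viperin group, Cmpk2 and Rsad2 rose and Mx1 did not pass. Rsad2 encodes viperin, which makes a chain-terminating nucleotide, and Cmpk2 is a nucleotide kinase that supplies it. They lie head to head on chromosome 12, Rsad2 at chr12:26442746-26456452 on the minus strand and Cmpk2 at chr12:26469204-26479837 on the plus strand, with 12.8 kb between them. Rsad2 had normalized counts of 56.8, 121 and 60.8 in sham-treated and 255, 300.0 and 210 in EV-treated libraries. Cmpk2 had 226, 156 and 156 in sham-treated and 612, 663 and 558 in EV-treated libraries. Neither gene overlapped between groups, and the log2FC values were 1.69 ± 0.31 (SE, adjusted p = 0.00185) and 1.76 ± 0.18 (SE, adjusted p = 3.53e-05). The call of Rsad2 rested on single libraries, with an adjusted p of 0.01, no longer under the threshold, without sham replicate 3 and of 0.0128 without EV replicate 2.

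The MX genes, whose family includes GTPases that trap viral nucleocapsids, were barely counted. Mx1 had normalized counts of 0, 42.9 and 9.72 in sham-treated and 16.0, 36.0 and 16.5 in EV-treated libraries, and the groups overlapped. Its log2FC of 0.41 ± 1.1 (SE, adjusted p = 0.81) turned to -0.19 without sham replicate 1 and to -0.08 without EV replicate 2. Mx2, at no more than 8 counts in any library, was too low to test.

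Usp18 was the gene of the IFIT and ISG15 system that rose. It encodes the protease that removes ISG15 from proteins and restrains signaling at the type I interferon receptor. Usp18 (chr6:121245906-121270917, plus strand) had normalized counts of 56.8, 17.2 and 96.0 in sham-treated and 290, 393 and 385 in EV-treated libraries, a log2FC of 2.65 ± 0.44 (SE, adjusted p = 0.000989). The lowest EV-treated library lay far above the highest sham-treated one. Isg15, the ubiquitin-like modifier itself, was counted at 28.8, 41.7 and 30.4 in sham-treated and 83.9, 89.1 and 92.3 in EV-treated libraries. Its groups did not overlap either, but with a log2FC of 1.40 ± 0.35 (SE) its adjusted p of 0.0105 missed the threshold. With DESeq2 (0.00159), with limma on the deposited normalized counts (0.00734), without the filter on low counts (0.00997) or without sham replicate 2 (0.00755) Isg15 passed. Herc6, the ligase that attaches ISG15 in mice, had a log2FC of 0.14 (adjusted p = 0.519). Of the remaining enzymes of ISG15 attachment, named after their values were seen, the activating enzyme Uba7 rose by 0.62 (adjusted p = 0.00012) and the conjugating enzyme Ube2l6 had a log2FC of -0.65 (adjusted p = 0.033).

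The IFIT proteins, which bind foreign RNA ends and hold back its translation, were low in every library. Ifit1 had normalized counts of 7.21, 15.9 and 0 in sham-treated and 11.0, 20.6 and 15.7 in EV-treated libraries, with a log2FC of 1.03 ± 0.99 (SE, adjusted p = 0.463). Ifit2 had 27.0, 15.9 and 52.3 in sham-treated and 15.0, 69.4 and 22.6 in EV-treated libraries, with a log2FC of 0.18 ± 0.70 (SE, adjusted p = 0.874). In both genes the groups overlapped, and the direction of Ifit2 turned without EV replicate 2 (-0.74) or sham replicate 2 (-0.14). Ifit3, counted at 0, 8.58 and 12.2 in sham-treated and 5.99, 18.9 and 3.48 in EV-treated libraries, was too low to test, and 61.8% of its 31-base words also occur in Ifit3b.

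The oligoadenylate synthetase (OAS) family, whose catalytic members make the messenger that activates RNase L, did not move together. Oasl2, an OAS-like protein (chr5:114896936-114912234, plus strand), was counted at 158, 239 and 126 in sham-treated and 647, 775 and 616 in EV-treated libraries. It rose by 1.97 ± 0.22 (SE) on the log2 scale (adjusted p = 7.33e-05) with no overlap. Its neighbour Oasl1, which starts 11.0 kb downstream on the same strand and whose product represses translation of IRF7, was counted at 63.1, 36.8 and 10.9 against 35.0, 43.7 and 35.7. There the groups overlapped, and the log2FC was 0.04 ± 0.61 (SE, adjusted p = 0.971), turning to -0.39 without sham replicate 3 and to -0.07 without EV replicate 2.

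Of Oas1a, Oas2 and Oas3, also on chromosome 5, none passed, and their fitted values were below 0. Oas1a was counted at 160, 129 and 181 in sham-treated and 80.9, 81.4 and 124 in EV-treated libraries. Each EV-treated library of Oas1a lay below each sham-treated one, with a log2FC of -0.71 ± 0.26 (SE, adjusted p = 0.0584), but 68.8% of its 31-base words are shared, mostly with Oas1g, so counts of the copies may be mixed. Oas3 was counted at 251, 563 and 371 in sham-treated and 254, 281 and 260 in EV-treated libraries, a log2FC of -0.57 ± 0.25 (SE, adjusted p = 0.109). Without sham replicate 1 the log2FC of Oas3 was -0.81 and passed (adjusted p = 0.00869). Oas2, counted at 22.5, 39.2 and 43.7 in sham-treated and 29.0, 36.0 and 32.2 in EV-treated libraries, overlapped between groups (log2FC -0.11 ± 0.50, SE, adjusted p = 0.888; 0.09 without sham replicate 3). Isg20, an exonuclease of RNA (chr7:78913424-78920396, plus strand), was counted at 105, 119 and 126 in sham-treated and 252, 242 and 273 in EV-treated libraries. It rose by 1.13 ± 0.18 (SE, adjusted p = 0.000828), with each group spanning a narrow range.

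Restriction factors at membranes included the gene that fell and none that rose. Ifitm3 (chr7:141009586-141010770, minus strand), which blocks fusion of incoming virus with endosomes, was counted at 178, 311 and 289 in sham-treated and 124, 60.9 and 101 in EV-treated libraries. The groups did not overlap, sham replicate 1 lay nearest to the EV-treated libraries, and the mean was 0.367 times that of sham, a log2FC of -1.44 ± 0.31 (SE, adjusted p = 0.00435). The call was lost without sham replicate 2 (0.017) or 3 (0.0206) and without EV replicate 2 (0.0168) or 3 (0.0198). As given above, 5 macrophage markers that fell were lowest in the same sham library, and their part in the value of Ifitm3 was not tested.

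The neighbouring Ifitm1 and Ifitm2, on the same stretch of chromosome 7, did not pass. Ifitm2 was counted at 1070, 1444 and 1724 in sham-treated and 1017, 975 and 1259 in EV-treated libraries, a log2FC of -0.38 ± 0.16 (SE, adjusted p = 0.0993), and passed at -0.54 without sham replicate 1 (adjusted p = 0.00844). A share of 55.5% of the 31-base words of Ifitm2 occur in other genes, so its counts are uncertain. Ifitm1 was counted at 3190, 2420 and 4324 in sham-treated and 3511, 3335 and 5776 in EV-treated libraries, a log2FC of 0.35 ± 0.23 (SE, adjusted p = 0.287). Its groups overlapped. Bst2, the tetherin that holds budding virus at the cell surface, had a log2FC of -0.22 (adjusted p = 0.47; 0.09 without sham replicate 2), and Rtp4 of 0.75 (adjusted p = 0.376), at a mean of 27.0 normalized counts in sham-treated and 45.7 in EV-treated libraries.

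Among the ADP-ribosyltransferases and TRIM ubiquitin ligases 4 of 7 rose and none fell, beside 12.1% and 11.6% of all genes tested. Parp14, which adds ADP-ribose to proteins, rose from a mean of 1302 ± 101 (SD, n = 3) to 2688 ± 128 (SD, n = 3) normalized counts, 1.05 ± 0.08 (SE) on the log2 scale (adjusted p = 5.26e-06). Trim21, a cytosolic antibody receptor and ubiquitin ligase, rose by 0.74 (adjusted p = 0.000473). Parp9 and Dtx3l, whose products form an ADP-ribosylating ubiquitin ligase, rose by 0.49 (adjusted p = 0.00233) and 0.65 (adjusted p = 3.43e-05). All 3 of Parp14, Dtx3l and Parp9 lie together on chromosome 16, where Parp9 and Dtx3l overlap by 682 bases on opposite strands. Reads of that overlap cannot be assigned without strand, and Parp9 lost its call without EV replicate 2 (0.0173) or 3 (0.0149).

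The other 3 of this group had fitted values below 0. Parp12 had a log2FC of -0.40 (adjusted p = 0.113) and Trim30a of -0.07 (adjusted p = 0.638). Trim25, the ubiquitin ligase that activates RIG-I, had the smallest standard error of the 41 genes, with a sham mean of 6399 ± 92.6 (SD, n = 3) and an EV mean of 5655 ± 145 (SD, n = 3). No library overlapped between groups for Trim25 or Parp12, yet at -0.18 ± 0.05 (SE, adjusted p = 0.0278) Trim25 did not pass.

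Among the remaining genes 2 of 8 tested rose and none fell, beside 12.1% and 11.6% of all genes tested. Ifi35, an interferon-induced leucine zipper protein, rose by 0.81 ± 0.09 (SE, adjusted p = 7.08e-05), and its binding partner Nmi had a log2FC of 0.59 ± 0.19 (SE, adjusted p = 0.035) with no overlap between groups. Sp100, a component of nuclear bodies that silence viral genomes, rose by 0.59 (adjusted p = 5.59e-05) from a mean of 4989 to 7518 normalized counts. Xaf1, a partner of the apoptosis inhibitor XIAP, had a log2FC of 0.85 ± 0.40 (SE, adjusted p = 0.132). Phf11d (0.45), Lgals3bp, a secreted glycoprotein (0.14), Epsti1 (-0.16) and Tor3a (-0.19) had adjusted p-values from 0.235 to 0.737. Lgals3bp turned to -0.03 without sham replicate 1 and Epsti1 to 0.10 without sham replicate 2. Ifi44 was too low to test, at no more than 7 counts in any library.

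All calls fell on the genes with more counts. Of the 41 antiviral genes, 9 had a mean under 100 normalized counts over the 6 libraries (Ifit1, Ifit2, Isg15, Oas2, Oasl1, Mx1, Rtp4, Xaf1 and Phf11d), and none of these was called. Their standard errors ran from 0.35 to 1.10 on the log2 scale. The 16 that rose and the 1 that fell were among the 32 with a mean of at least 100, where standard errors ran from 0.05 to 0.44. Over all genes tested, 1.77% of those with a mean under 100 were higher and 7.06% lower, against 15.1% and 13.0% of those with a mean of at least 100.

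**Figure D3:**
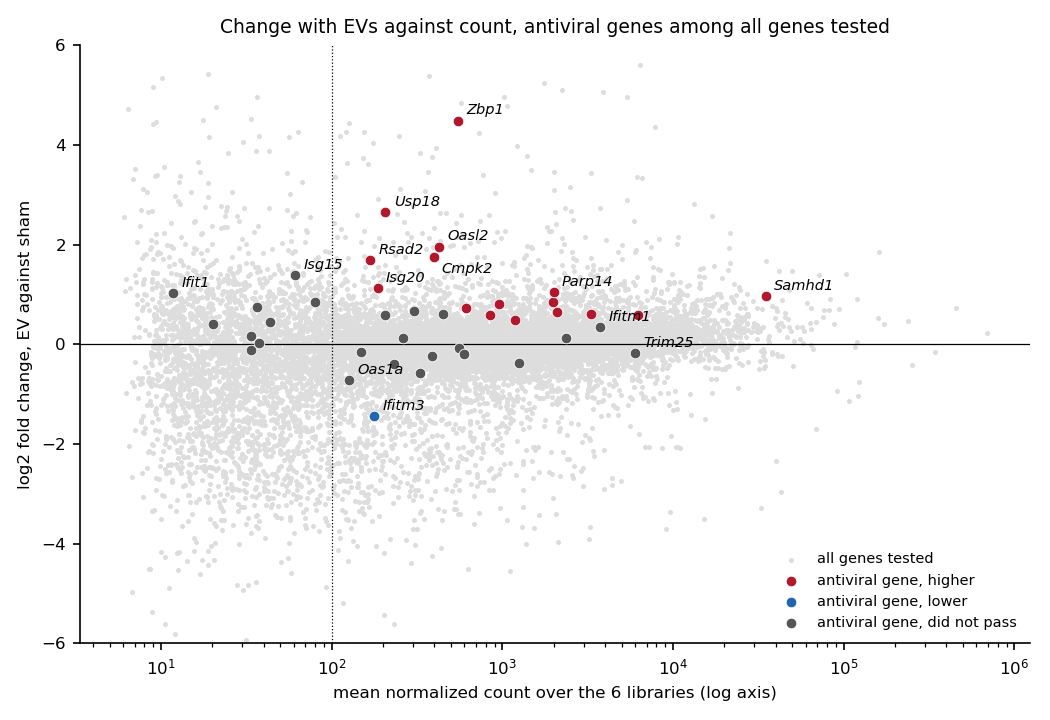
Log2 fold change between EV- and sham-treated eosinophils (y axis) against the mean normalized count over the 6 libraries (x axis, log scale) for all genes tested (light grey), with antiviral genes in red (higher), blue (lower) and dark grey (did not pass). The dotted line stands at 100 counts, left of which no antiviral gene was called, and 38 genes of the background lie outside the plotted range of -6 to 6.

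The 3 EV-treated libraries resembled each other across the antiviral genes. Relative to the sham mean of each gene, the median antiviral gene stood at 0.60, 0.60 and 0.57 on the log2 scale in EV replicates 1 to 3 and at -0.03, 0.06 and -0.01 in sham replicates 1 to 3, while the median of all genes tested stood between 0.00 and 0.02 in each of the 6 libraries. The shift was thus of like size in every EV-treated library. Among the 16 genes that rose, EV replicate 2 was the highest of the EV-treated libraries for 11 (68.8%), EV replicate 3 for 5 (31.3%) and EV replicate 1 for 0. Over all genes called higher, EV replicate 2 was the highest for 28.4%, EV replicate 3 for 43.6% and EV replicate 1 for 457 of 1632. The median coefficient of variation of the antiviral genes tested was 22.8% among sham-treated and 7.80% among EV-treated libraries, and over all genes tested it was 13.0% and 7.14%.

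Of 112 other interferon genes tested, from receptors and sensors to further target genes and inhibitors, 46 were higher and 9 were lower. These are 41.1% and 8.04% of them, beside 12.1% and 11.6% of all genes tested. Their median log2FC was 0.34, and with total counts alone as the scaling 39 were higher and 15 lower. Of these 112, 43 stand on the list of further type I targets and 34 on that of interferon-gamma-type targets, and some genes stand on more than 1 list. Among 14 receptors, kinases and transcription factors 6 rose (42.9%) and 1 fell (7.14%). Irf7, the factor that amplifies type I interferon responses, was counted at 146, 170 and 180 in sham-treated and 688, 708 and 687 in EV-treated libraries, and rose by 2.07 (adjusted p = 2.09e-06). Jak2 rose by 1.41 (adjusted p = 6.44e-08) and Irf9, the DNA-binding part of ISGF3, by 1.31 (adjusted p = 7.96e-07). Stat2, also a part of ISGF3, rose by 0.48 (adjusted p = 0.000996). Ifnar2, a chain of the type I interferon receptor, fell from 3753, 3955 and 3774 to 2419, 2288 and 2528 normalized counts, by 0.67 on the log2 scale (adjusted p = 2.88e-05). Its partner chain Ifnar1 had a log2FC of -0.34 (adjusted p = 0.0133), and the interferon-gamma receptor chains Ifngr1 and Ifngr2 each of 0.17 (adjusted p = 0.0907 and 0.0832). Of 11 interferon ligand genes listed, Ifnz had a row, at no more than 15 counts in any library, and was not tested.

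Of 17 further genes tested that sense nucleic acids or induce interferon, 2 rose (11.8%) and 6 fell (35.3%), with a median log2FC of -0.26. Over all genes tested 12.1% were higher and 11.6% lower, so the share that rose was near that of all genes. The endosomal receptors for RNA fell furthest. Tlr3 was counted at 48.7, 56.4 and 125 in sham-treated and 2.00, 6.86 and 6.09 in EV-treated libraries (log2FC -3.89 ± 0.66, SE, adjusted p = 0.00117). Tlr7 was counted at 251, 385 and 598 in sham-treated and 27.0, 47.1 and 60.1 in EV-treated libraries (log2FC -3.19 ± 0.37, SE, adjusted p = 9.62e-05). Tlr8 had a log2FC of -2.42 ± 0.31 (SE, adjusted p = 0.000178). For all 3 receptors sham replicate 1 was the lowest sham-treated library, as it was for the macrophage markers named above. The part of those cells in these values was not tested. Trex1, a nuclease that clears cytosolic DNA, rose by 0.98 (adjusted p = 0.00072) and Traf3, an adaptor of interferon induction, by 0.65 (adjusted p = 0.000132).

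Further interferon-stimulated genes outside the 44 were listed in 2 groups. Of all genes tested, 12.1% were higher and 11.6% lower. Of 43 tested on the list of further type I targets, 15 rose (34.9%) and 2 fell (4.65%), with a median log2FC of 0.34. Irf7 led them, followed by Nlrc5, the activator of MHC class I genes, at 1.63 (adjusted p = 2.19e-06) and Ly6e, a membrane protein, at 1.50 (adjusted p = 6.31e-08), while the DNA-binding Ifi207 (-2.07, adjusted p = 0.000338) and Ifi204 (-1.14, adjusted p = 0.0057) fell. Of 34 tested on the list of interferon-gamma-type targets, 24 rose (70.6%) and none fell, with a median of 1.19. The fitted value was above 0 for 29 and below 0 for 5. Among the 5 were the MHC class II genes H2-Ab1 (-0.91, adjusted p = 0.0293), H2-Aa (-0.54, adjusted p = 0.194) and H2-Eb1 (-0.31, adjusted p = 0.415). Cd74, the invariant chain of MHC class II, was also among them (-0.88, adjusted p = 0.0437). Serpina3g, a protease inhibitor, was counted at 0, 9.80 and 8.51 in sham-treated and 1590, 1233 and 1226 in EV-treated libraries (log2FC 7.91 ± 0.39, SE, adjusted p = 3.53e-07). Gbp3 and Iigp1, GTPases that attack the vacuoles of intracellular microbes, were at 0 counts in all 3 sham-treated libraries. Against a floor of 3 counts per library the EV-treated mean was at least 7.86-fold higher for Gbp3 and at least 7.09-fold higher for Iigp1, at means of 26.3 and 23.7 normalized counts. The Gbp, Iigp, Serpina3 and Ifi200 genes have close copies, between which counts may be split. The difference between the lists was not tested, and lists overlap in members such as Irf7 and Nlrc5.

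Of 11 feedback inhibitors of interferon signaling other than Usp18, 6 rose (54.55%) and none fell, beside 12.1% and 11.6% of all genes tested. The paper reports higher Socs1 and Socs3 as negative regulators of cytokine signaling downstream of JAK/STAT. Socs1 also stands on the list of interferon-gamma-type targets. Socs1, which blocks JAK kinases, was counted at 123, 174 and 82.6 in sham-treated and 4002, 4345 and 4661 in EV-treated libraries, a log2FC of 5.10 ± 0.19 (SE, adjusted p = 5.75e-08). Socs3 rose by 3.77 (adjusted p = 1.03e-08) and the phosphatase Ptpn6 by 0.65 (adjusted p = 1.87e-05).

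**Figure D4:**
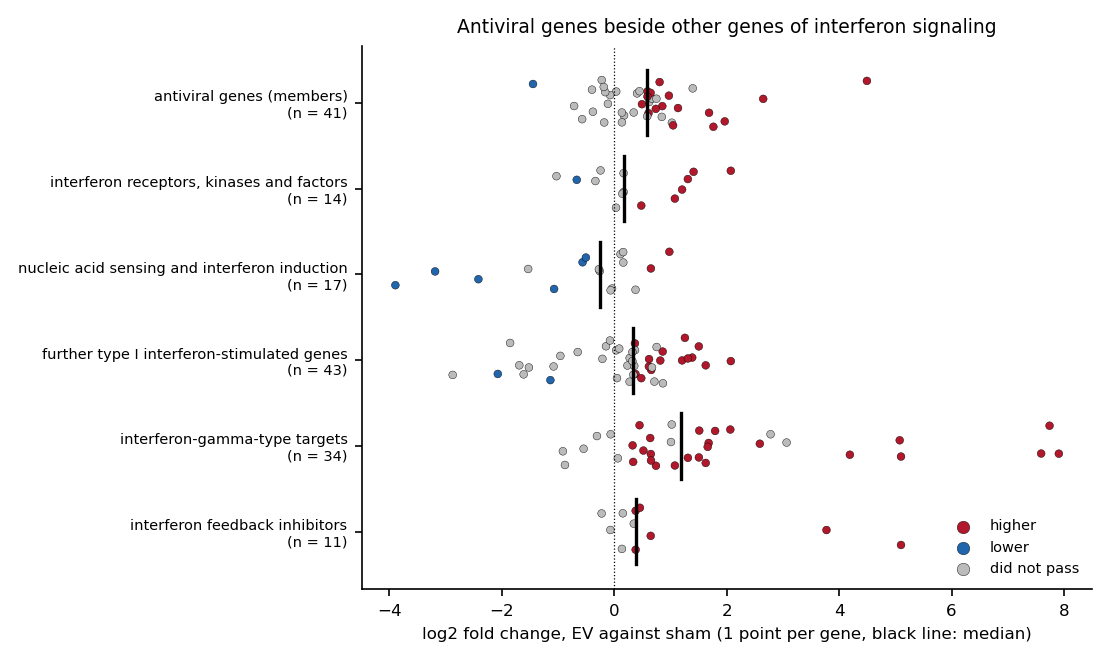
Log2 fold change between EV- and sham-treated eosinophils (x axis) for the antiviral genes and 5 lists of interferon signaling genes, 1 point per gene tested, with red for higher, blue for lower, grey for genes that did not pass and a black line at the median of each list. The median lies at 0.59 for the antiviral genes, at 1.19 for interferon-gamma-type targets and at -0.26 for nucleic acid sensing.

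Promoters were available in the RefSeq table for 34 of the 44 antiviral genes (GRCm38.p6, 250 bases before to 50 after each start site). The 140 bases before the start site are printed for 6 genes, 5′ to 3′ on the strand of the gene, to set promoters that carry the same motif beside unlike calls. Capitals mark the ISRE core (GAAANNGAAA or its complement TTTCNNTTTC, searched on both strands) or the GAS motif (TTCNNNGAA, its own complement). Rsad2 (chr12:26456453-26456592, minus strand) rose and holds an ISRE core that begins 120 bases before the start site. Isg20 (chr7:78913284-78913423, plus strand) rose and holds a GAS motif 73 bases before its start site 1, without an ISRE core. The windows of its start sites 2 and 3, not printed, hold neither motif. The other 4 did not pass. Of these, Ifit1 (log2FC 1.03 ± 0.99, SE) and Isg15 (1.40 ± 0.35, SE) had means under 100 normalized counts. For these 2 genes a missing call does not show that the transcript was unchanged. Ifit1 (chr19:34640749-34640888, plus strand) holds ISRE cores 104 and 85 bases before the start site, Isg15 (chr4:156200819-156200958, minus strand) 3 that overlap, 78, 72 and 66 bases before it, and Oas3 (chr5:120777660-120777799, minus strand) 1 that begins 75 bases before it. Bst2 (chr8:71537473-71537612, minus strand) holds overlapping ISRE cores 130 and 124 bases before the start site, which also overlap a GAS motif at 136 bases.
Rsad2: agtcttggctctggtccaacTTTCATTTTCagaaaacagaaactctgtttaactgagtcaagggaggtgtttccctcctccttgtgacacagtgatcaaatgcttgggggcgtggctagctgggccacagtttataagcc
Isg20: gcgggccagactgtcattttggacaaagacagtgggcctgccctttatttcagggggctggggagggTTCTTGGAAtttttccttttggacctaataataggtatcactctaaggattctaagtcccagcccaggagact
Ifit1: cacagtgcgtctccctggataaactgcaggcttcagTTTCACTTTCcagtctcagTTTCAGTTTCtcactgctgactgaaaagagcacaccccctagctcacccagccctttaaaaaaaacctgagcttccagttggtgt
Isg15: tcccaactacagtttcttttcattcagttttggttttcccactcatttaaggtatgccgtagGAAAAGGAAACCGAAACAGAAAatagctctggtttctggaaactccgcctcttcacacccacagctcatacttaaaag
Oas3: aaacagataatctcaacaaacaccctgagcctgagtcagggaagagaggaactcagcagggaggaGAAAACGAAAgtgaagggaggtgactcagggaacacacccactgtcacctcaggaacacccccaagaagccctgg
Bst2: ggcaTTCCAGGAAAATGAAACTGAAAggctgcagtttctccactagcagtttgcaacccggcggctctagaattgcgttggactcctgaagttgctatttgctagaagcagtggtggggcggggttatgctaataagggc

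An ISRE core was found in the promoters of 14 of the 34 antiviral genes (41.2%), beside 3.99% of all 27025 genes and 3.44% of all 32851 promoters in the table. It was found in 4 of 12 that rose (33.3%) and in 8 of 19 that were tested and did not pass (42.1%), so the share was not higher among those that rose. Besides Rsad2, the genes that rose with an ISRE core were Ddx58, Eif2ak2 and Trim21, in which it began 3 to 20 bases into the transcript. Ifitm3, the gene that fell, holds 2 ISRE cores, 3 and 20 bases into the transcript. A GAS motif was found in 9 of 34 (26.5%), beside 9.55% of all genes and 8.30% of all promoters. It was found in 5 of 12 that rose (Isg20, Eif2ak2, Adar, Samhd1 and Ifi35) and in 3 of 19 that did not pass. A match says that these letters occur in the window and a missing match says no more than that they do not. Zbp1, Usp18 and Parp14 have no promoter in the table.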

How the data were processed

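Counts from bulk RNA sequencing of 6 cultures were used, 3 per treatment as the sample labels name it. After quality control (FastQC) and adapter trimming (Cutadapt), the authors ran Salmon and deposited its estimated counts for 16254 genes by symbol, without pooling replicates. The build was mm10 per the submitters' processing notes, while tool versions, annotation and strandedness are not given in the sources used here. The deposited normalized counts, a signal above 0 for every gene, were made by adding 1 to each rounded count and dividing by the sample's size factor, and entered 1 alternative. The authors' table of their own comparison (log2 fold changes and p-values) was not used.

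Estimated counts were rounded and tested with edgeR 4.0.16 in R 4.3.3 (TMM scaling, filterByExpr, quasi-likelihood test, Benjamini-Hochberg adjustment over 13498 genes, threshold 0.01). The study's adjusted p threshold was used without its further requirement on the fold change, which was an alternative. Standard errors were obtained from the log2 fold change and the F statistic (ratio of its size to the root of F). For normalized counts, each rounded count was divided by its library's effective size (total times TMM factor), scaled so that the geometric mean over the 6 libraries was 1. DESeq2 1.42.0, limma 3.58.1 (on the log2 scale, from the deposited normalized counts with 1 added), other scalings, no filter, a replicate block, other thresholds and leaving out each library were the alternatives. Shared sequence is the percent of 31-base words of a gene's GENCODE vM21 transcripts found in another gene. Between 23697620 and 37874426 counts per library make counting error small for all but low genes, so p-values measure the spread between cultures that the labels call biological replicates. With 3 against 3, exact permutation cannot reach a two-sided p below 0.1, so no such test is given.

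The 44 genes, the 6 pathway lists and the markers were chosen with earlier results of these data known. Values per library are given for the 6 called genes with the largest rise, the called gene that fell, all IFIT, OAS, MX and IFITM genes, and Samhd1. Of each pathway list up to 3 called genes in each direction are named. Per-library values of Isg15 and Ddx58 and the mentions of Stat2, Ifnar1, Ifngr1, Ifngr2, Uba7 and Ube2l6 were added after their values were seen. The same holds for the mentions of H2-Ab1, H2-Aa, H2-Eb1 and Cd74. Values of a few listed genes are left out.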

Additional observations from a re-analysis of the deposited data

How the results depend on the processing

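Of the 16 antiviral genes that rose, 13 kept their call under all 13 other settings (other scalings, no filter, DESeq2, limma, the replicate block and each library left out). Eif2ak2, Rsad2, Parp9 and Ifitm3 did not, and no called gene changed direction. The cause was not tested. With total counts alone as the scaling, which moved the median of all genes to -0.16, 1036 genes were higher and 2342 lower, 2 antiviral genes were lower (Ifitm3 and Trim25), 15 pathway genes were lower and the median of the antiviral genes was 0.44. DESeq2 called 14 pathway genes lower. At an adjusted p under 0.05, 2478 genes, 2 antiviral genes and 20 pathway genes were lower. With a log2 fold change of at least 1 required, 419 genes were higher and 857 lower, 7 antiviral genes were higher, and 24 pathway genes were higher. Leaving out each library in turn gave 1071 (without EV replicate 3) to 1833 genes higher, 1018 (without EV replicate 3) to 1698 lower, 13 to 18 antiviral genes higher and 0 to 3 lower (3 without sham replicate 1, Ifitm2, Ifitm3 and Oas3; 0 without sham replicate 2 or 3 or EV replicate 2 or 3), 35 to 49 pathway genes higher and 6 to 13 lower, and a median of the antiviral genes from 0.58 to 0.62.

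Some genes that did not pass changed sign. With total counts alone Herc6 was at -0.011, Oasl1 at -0.11 and Lgals3bp at -0.015 (log2 fold change, each), and with upper-quartile scaling Oasl1 was at -0.014. Over the fits that left out 1 library, the ranges were -0.74 to 0.73 for Ifit2, -0.35 to 0.087 for Oas2, -0.39 to 0.69 for Oasl1, -0.19 to 2.30 for Mx1, -0.39 to 0.09 for Bst2, -0.026 to 0.38 for Lgals3bp and -0.47 to 0.10 for Epsti1.

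The groups share replicate numbers, but the numbers were not taken to pair the samples. After subtraction of the group mean, samples with the same number correlated across genes at 0.117, 0.085 and 0.037, and EV replicate 3 correlated best with sham replicate 2 (0.049). With the replicate number as a block, 1794 genes were higher and 1781 lower, 19 antiviral genes were higher (with Dhx58, Ifih1 and Ifitm1 added) and 1 lower, 51 pathway genes were higher and 14 lower, and Ifit2 was at -0.045.

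Low counts limited the IFIT, MX, Oas2, Oasl1, Isg15, Rtp4, Xaf1 and Phf11d values, and 3 cultures per group limit the rest.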
